A study of Mus musculus with 7 samples.

Results

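The transcripts described here are 10 markers of resting and progenitor-like fibroblasts: Pi16, Dpp4, Cd34, Dpt, Clec3b, Gsn, Scara5, Ly6a, Ly6c1 and Cd248. They were taken by symbol from a table of read counts for 24421 gene symbols in sorted mouse mammary stroma. All 10 were in the table, and all 10 were among the 10535 genes abundant enough to be tested. In connective tissue of the mouse, fibroblasts that carry Pi16 and Dpp4 lie in the fascia and around vessels. They are known as a reserve population that can give rise to more specialised fibroblasts and to preadipocytes, the committed precursors of fat cells. Ly6a (Sca-1) and Cd34 are used to sort such cells from fat, and Dpt, Clec3b, Gsn and Scara5 are transcribed broadly in unstimulated fibroblasts.

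The tumor libraries, labelled pCAF, were 3 samples of cancer-associated fibroblasts (fibroblasts that grow within a tumor). They came from BALB/c females injected in a mammary fat pad with 100000 4T1-luc cells, a mouse mammary carcinoma line that carries luciferase, and tumors were taken at 1 cm. Cells bearing Ter119 (red cells), CD45 (immune cells) or EpCAM (epithelium) were sorted out and cells with podoplanin (PDPN), a glycoprotein of fibroblasts and lymphatic endothelium, were kept. The 4 NMF libraries were of normal mammary fat pad from BALB/c mice without tumors, sorted with the same negative markers and with no selection on PDPN. The mice were labelled 8 weeks old for pCAF and 12 weeks old for NMF, whereas the design text called them age matched. The tissues were digested with different collagenases, so tumor, sort, age label and digestion cannot be told apart. The selection field of pCAF replicate 3 read PDPN negative against its title and source; Pdpn counts were 1779, 498 and 692 in pCAF replicates 1 to 3, against 128, 109, 166 and 236 in NMF replicates 1 to 4. Replicates were called biological without naming the animals, so a p-value here reflects only how much these 7 libraries vary.

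Libraries held 1885039 to 4990070 counts of 3' ends of polyadenylated RNA. In each group 1 library stood apart, pCAF replicate 1 and NMF replicate 4. Counts were found for 11090 genes in pCAF replicate 1, against 13222 to 14353 in the other 6 libraries. Chi-square per degree of freedom, computed on the counts of library pairs, was 40.0 and 42.2 between pCAF replicate 1 and the other pCAF libraries, against 3.22 between those. It was 35.6 to 39.8 between NMF replicate 4 and the other NMF libraries, against 6.47 to 10.1 among those. Fibroblast transcripts were present in both groups: Pdgfra, the PDGF receptor chain that marks fibroblasts, was at 208 ± 27.2 CPM in pCAF (SD, n = 3) and 201 ± 58.8 CPM in NMF (SD, n = 4; edgeR adjusted p = 0.916). CPM are depth-scaled counts, here with TMM scaling of the libraries. Of 10 genes that fibroblasts of most tissues transcribe, 4 passed as higher in pCAF (Col1a1, Col1a2, Col3a1 and Lum) and 0 as lower, with a median log2 fold change of 0.92. The number higher was 2 when pCAF replicate 2 or NMF replicate 1 was left out. Lum lost its call when any library except NMF replicate 4 was left out (adjusted p = 0.0525 to 0.121), and Dcn was lower without pCAF replicate 1 (adjusted p = 0.0184).

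The question for these markers was whether tumor fibroblasts carry the transcripts of the resting state at the level of normal fat pad stroma. All 10 had a lower fitted level in pCAF, and 6 passed the test as lower: Gsn, Dpp4, Ly6c1, Dpt, Clec3b and Scara5, by 2.85-fold to 30.6-fold. These 6 did not overlap between the groups, against 21.4% of all tested genes that lay wholly lower in pCAF. Pi16, Ly6a, Cd248 and Cd34 did not pass, and none was higher. Across all 10535 genes, 14.2% passed as lower in pCAF and 14.3% as higher (edgeR's quasi-likelihood test, Benjamini-Hochberg adjusted p under 0.05). The median log2 fold change, pCAF over NMF, was -1.55 for the 10 markers and -0.02 for all tested genes. Because these are bulk samples, fewer cells of a type and less RNA per cell cannot be told apart.

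**Figure D1:**
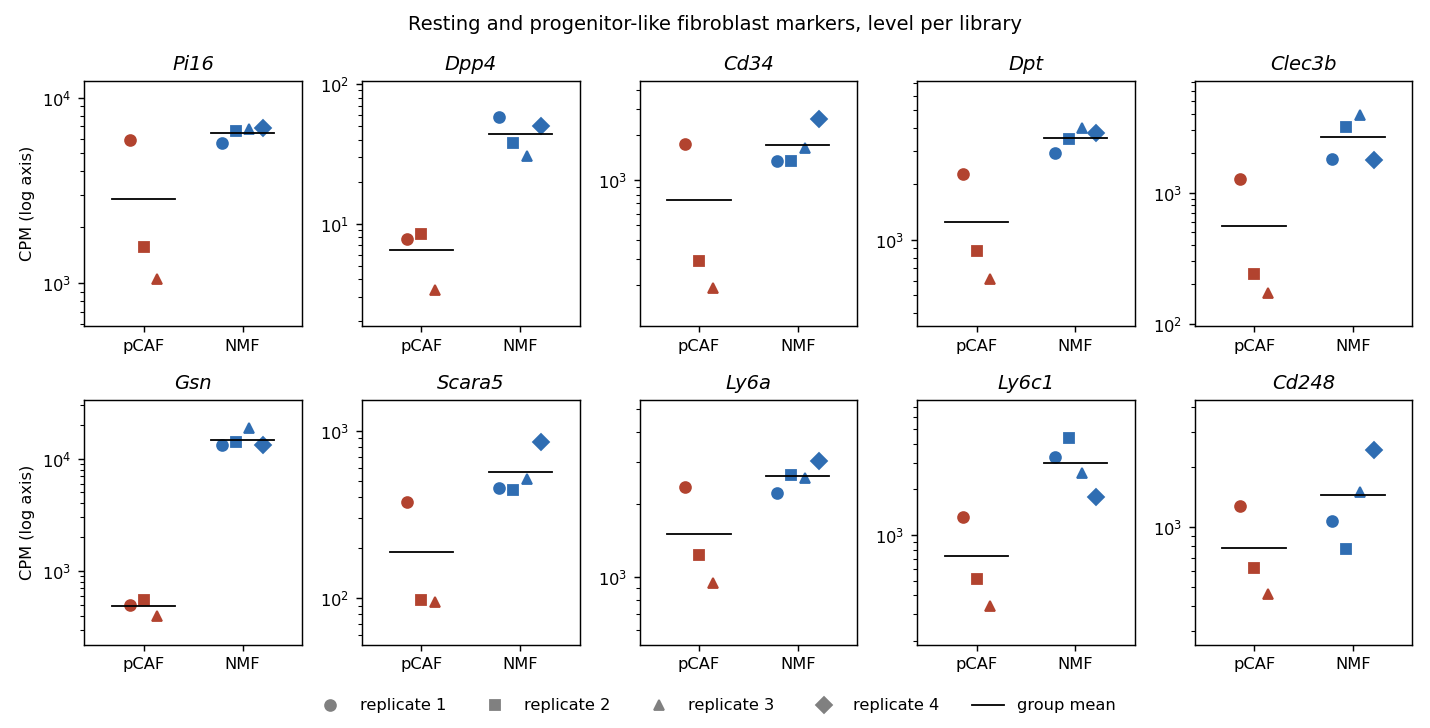
Level of each of the 10 markers in every library, in CPM on a log axis, with the 3 pCAF libraries left of the 4 NMF libraries, marker shapes for the replicate number and a line at each group mean. Gsn and Dpp4 were low in all 3 pCAF libraries, while for Pi16, Cd34, Ly6a and Cd248 the level in pCAF replicate 1 lay inside the NMF range.

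Gsn encodes gelsolin, which severs and caps actin filaments and is also secreted into plasma (mm10 chromosome 2, 35256380 to 35307892, plus strand). Its level was 499, 549 and 397 CPM in pCAF replicates 1 to 3, against 13145, 13962, 18672 and 13133 CPM in NMF replicates 1 to 4. The 3 pCAF libraries lay close together and far below every NMF library. The means were 482 ± 77.3 CPM in pCAF (SD, n = 3) and 14728 ± 2658 CPM in NMF (SD, n = 4), a 30.6-fold lower level in pCAF. The log2 fold change was -4.93 (SE 0.33, edgeR adjusted p = 2.69e-05), and its adjusted p ranked 8 among the 10535 tested. Gsn was also the marker with the most even level within pCAF, with a coefficient of variation of 16.0% in pCAF and 18.05% in NMF.

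Dpt and Clec3b encode secreted proteins of the matrix. Dermatopontin, the product of Dpt (chromosome 1, 164796644 to 164824266, plus strand), binds decorin and assists collagen fibril assembly. Dpt was at 2255, 872 and 615 CPM in pCAF, against 2947, 3497, 3997 and 3791 CPM in NMF. No pCAF library reached the NMF range, though replicate 1 stood well above the other pCAF libraries. Dpt fell 2.85-fold (1247 ± 882 CPM in pCAF against 3558 ± 456 CPM in NMF; log2 fold change -1.51, SE 0.43, edgeR adjusted p = 0.0254). Tetranectin, the product of Clec3b (chromosome 9, 123150946 to 123157432, plus strand), is a C-type lectin-like protein that binds plasminogen. Clec3b was at 1265, 239.96 and 173 CPM in pCAF, against 1813, 3173, 3936 and 1772 CPM in NMF. Its groups did not overlap either, and pCAF replicate 1 was again the highest of the tumor libraries. Clec3b fell 4.78-fold (559 ± 612 against 2674 ± 1064 CPM; log2 fold change -2.26, SE 0.68, edgeR adjusted p = 0.0313).

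Among the surface proteins, Dpp4 had the lowest counts. Dipeptidyl peptidase 4, also called CD26, removes dipeptides from the ends of chemokines such as CXCL12 and of incretin hormones (chromosome 2, 62330073 to 62412231, minus strand). Dpp4 counts were 14, 15 and 6 in pCAF, against 151, 89, 86 and 268 in NMF. Scaled, they came to 7.76, 8.45 and 3.33 CPM in pCAF and 58.3, 37.6, 30.3 and 50.1 CPM in NMF. All 3 pCAF libraries lay below every NMF library, and replicate 1 did not stand out among them. Dpp4 fell 6.73-fold (6.51 ± 2.78 against 44.1 ± 12.5 CPM; log2 fold change -2.75, SE 0.43, edgeR adjusted p = 0.00119). Pi16 encodes peptidase inhibitor 16, a membrane-anchored member of the CAP family after which this fibroblast population is often named (chromosome 17, 29317680 to 29330593, plus strand). Pi16 was at 5906, 1559 and 1059 CPM in pCAF, against 5687, 6572, 6769 and 6819.5 CPM in NMF. The NMF libraries differed little, with a coefficient of variation of 93.8% in pCAF and 8.17% in NMF, and pCAF replicate 1 lay inside their range. Pi16 did not pass (2841 ± 2666 against 6462 ± 528 CPM; log2 fold change -1.19, SE 0.53, edgeR adjusted p = 0.120).

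Cd34 and Cd248 encode glycoproteins of the cell surface that are also present on cells of vessels. CD34 is a sialomucin of blood progenitors, endothelium and adventitial fibroblasts (chromosome 1, 194938819 to 194961279, plus strand). Cd34 was at 1743, 290.1 and 192 CPM in pCAF, against 1346, 1345, 1633 and 2544 CPM in NMF. pCAF replicate 1 exceeded 3 of the 4 NMF libraries, and the other pCAF libraries lay far below all of them. The test was not passed (742 ± 868 against 1717 ± 568 CPM; log2 fold change -1.21, SE 0.67, edgeR adjusted p = 0.211). Cd248, which encodes endosialin, a C-type lectin family protein of fibroblasts and pericytes (chromosome 19, 5068078 to 5070682, plus strand), was at 1271, 621 and 461 CPM in pCAF, against 1066, 770.2, 1498 and 2417 CPM in NMF. It was the most uneven marker within NMF, with a coefficient of variation of 54.6% in pCAF and 49.9% in NMF, and it did not pass (784 ± 429 against 1438 ± 718 CPM; log2 fold change -0.87, SE 0.46, edgeR adjusted p = 0.187).

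Ly6a and Ly6c1 are neighbouring genes of the Ly6 cluster whose small products are held on the membrane by a lipid anchor. Ly6a encodes the stem cell antigen Sca-1 (chromosome 15, 74994877 to 74998031, minus strand) and was at 2350.3, 1234 and 938 CPM in pCAF, against 2229, 2657, 2570.1 and 3029.7 CPM in NMF. pCAF replicate 1 lay inside the NMF range, and Ly6a did not pass (1508 ± 745 against 2621 ± 329 CPM; log2 fold change -0.80, SE 0.34, edgeR adjusted p = 0.108). Ly6c1 (chromosome 15, 75044018 to 75048830, minus strand), a marker of monocytes, endothelium and fibroblast subsets in mice, was at 1321, 515 and 342 CPM in pCAF, against 3252, 4339.7, 2549.7 and 1784 CPM in NMF. The groups did not overlap, and Ly6c1 fell 4.11-fold (726 ± 523 against 2981 ± 1086 CPM; log2 fold change -2.04, SE 0.50, edgeR adjusted p = 0.0128). Both values are uncertain, because the counting could have split reads among copies. In the last 300 bases of their transcripts, Ly6a matched Ly6c1 over 263 bases at 96.6% identity and Ly6c1 matched Ly6c2 over 300 bases at 99% identity. No other marker had such a copy.

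Scara5 was the only receptor for a nutrient among the markers. It encodes a scavenger receptor that takes up ferritin (chromosome 14, 65666403 to 65764826, plus strand). Scara5 was at 374, 96.9 and 94.8 CPM in pCAF, against 457, 441, 511 and 853 CPM in NMF. pCAF replicate 1 came close to the lowest NMF library, while replicates 2 and 3 had nearly equal, lower levels. Scara5 fell 3.00-fold (188 ± 160.5 against 565 ± 194 CPM; log2 fold change -1.59, SE 0.51, edgeR adjusted p = 0.0428).

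Because the series title names RUNX1, the core letters of the RUNX motif (TGTGGT, or ACCACA on the other strand) were looked for in the 250 bases before RefSeq transcript starts. These sequences, from RefSeq on GRCm38.p6, covered 9 start sites of 6 of the 10 markers. The letters were found before 3 of the 9 starts, in Dpt and at the middle and the last start of Gsn, against 14.0% of 32851 promoters of that length. The AP-1 letters TGANTCA were found before none of the 9 starts, against 6.75% of all. The TATA letters TATAAA, or TTTATA on the other strand, were found before 2, in Dpp4 and Ly6c1, against 12.4%. They began 227 bases before the start in Dpp4 and 143 bases before it in Ly6c1. The sequences shown are those of Gsn and Dpp4, which were low in every pCAF library, and of Dpt. For Gsn only the middle and the last start are shown, and the first start held none of these letters. Dpt holds the RUNX letters nearest to a RefSeq start, 9 bases before it. The gene position given above for Dpt, from another annotation, begins at 164796644, upstream of these letters. Capitals mark the letters found, and a match does not show that a factor binds there.
Gsn, middle start, chr2:35266494-35266743, plus strand: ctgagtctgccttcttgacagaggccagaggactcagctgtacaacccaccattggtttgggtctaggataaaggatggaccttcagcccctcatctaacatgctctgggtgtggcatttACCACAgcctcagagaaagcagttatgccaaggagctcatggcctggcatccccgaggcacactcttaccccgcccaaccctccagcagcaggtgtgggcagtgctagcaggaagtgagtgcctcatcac
Gsn, last start, chr2:35282130-35282379, plus strand: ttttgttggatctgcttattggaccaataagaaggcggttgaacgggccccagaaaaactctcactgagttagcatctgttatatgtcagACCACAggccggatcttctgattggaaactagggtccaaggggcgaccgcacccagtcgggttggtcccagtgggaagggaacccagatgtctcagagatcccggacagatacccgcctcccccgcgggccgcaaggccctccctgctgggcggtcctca
Dpt, chr1:164796413-164796662, plus strand: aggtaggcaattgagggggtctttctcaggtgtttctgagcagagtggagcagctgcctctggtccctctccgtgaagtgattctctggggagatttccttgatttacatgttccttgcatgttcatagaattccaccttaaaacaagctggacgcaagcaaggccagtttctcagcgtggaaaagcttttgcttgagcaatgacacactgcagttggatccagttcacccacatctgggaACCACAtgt
Dpp4, chr2:62412232-62412481, minus strand: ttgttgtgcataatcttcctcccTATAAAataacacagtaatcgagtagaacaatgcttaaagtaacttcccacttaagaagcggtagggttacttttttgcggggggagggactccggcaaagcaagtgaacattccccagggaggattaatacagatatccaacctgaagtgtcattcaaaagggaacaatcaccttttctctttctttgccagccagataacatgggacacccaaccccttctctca

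Within pCAF the markers followed 2 patterns. For Gsn and Dpp4, replicate 1 did not stand above both of the other tumor libraries: it was at 1.05 times the mean of replicates 2 and 3 for Gsn and 1.32 times for Dpp4. Gsn was even across the 3 libraries, whereas Dpp4, with few counts, had a coefficient of variation of 42.7% in pCAF and 28.5% in NMF. For the other 8 markers replicate 1 was higher, by 7.23-fold for Cd34, 6.13-fold for Clec3b, 4.51-fold for Pi16 and 3.90-fold for Scara5, and by 2.16-fold to 3.08-fold for Ly6a, Cd248, Dpt and Ly6c1. These folds are ratios to the mean CPM of replicates 2 and 3. Against their mean log2 level, with 0.5 CPM added, replicate 1 was over 2-fold higher for 8 of the 10 markers. The same was found for 17.0% of all tested genes. Replicate 3 stood at 0.394 (Dpp4) to 0.978 (Scara5) times replicate 2. On that log2 scale, the median ratio of replicate 1 to the other tumor libraries was 3.11 for the 10 markers. It was 1.37 for 18 further progenitor genes, 0.890 for 14 genes of activated tumor fibroblasts and 0.891 for all tested genes. For the 10 genes that fibroblasts of most tissues transcribe it was 1.26, with 6 higher in replicate 1 and 2 over 2-fold. Pdpn, on which these cells were sorted, was 2.97 times higher in replicate 1, whereas Pdgfra stood at 0.868 times.

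**Figure D2:**
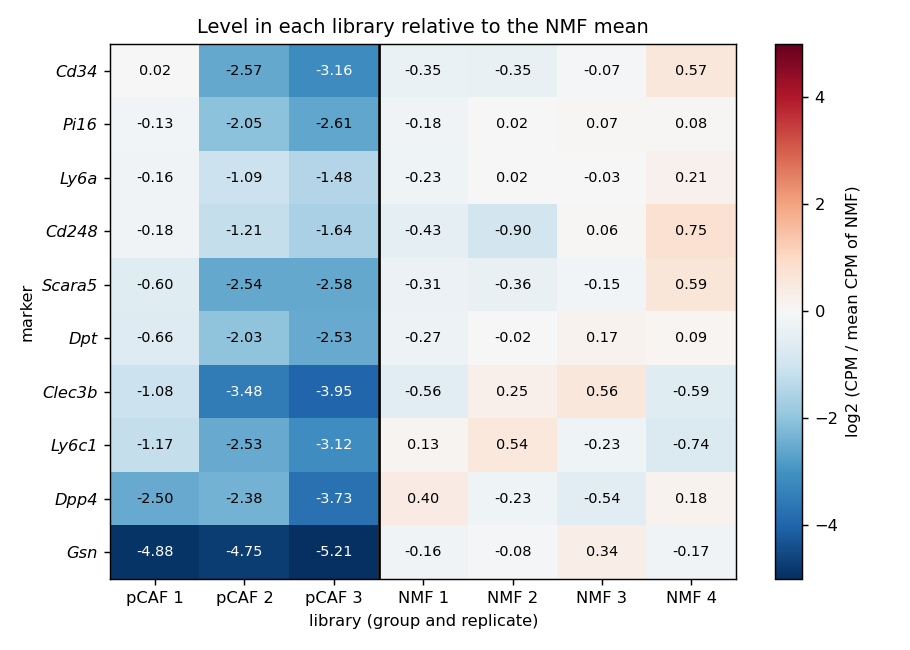
Each cell gives the log2 ratio of a marker's CPM in a library to its NMF mean, with pCAF replicates 1 to 3 in the left columns, NMF replicates 1 to 4 in the right columns, and markers ordered by their value in pCAF replicate 1. Replicates 2 and 3 of pCAF were below the NMF mean for all 10 markers, and replicate 1 was near it for Pi16, Cd34, Ly6a and Cd248.

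With pCAF replicate 1 left out, all 10 markers passed as lower in pCAF, against 19.8% of the 11048 genes tested. Cd34 then had a log2 fold change of -2.84 (edgeR adjusted p = 3.58e-04), Pi16 of -2.31 (1.95e-04), Cd248 of -1.41 (0.0278) and Ly6a of -1.28 (0.00311). Clec3b, at -3.70, Scara5, at -2.57, Ly6c1, at -2.80, and Dpt, at -2.26, moved by over 1.5-fold in the same direction, and Gsn, at -4.96, and Dpp4, at -2.90, did not. The count of 6 also depended on the other libraries. It was 2 without pCAF replicate 2 (10.2% of genes lower), 3 without pCAF replicate 3 (10.3%), and 3 without NMF replicate 1 (9.6%), 2 (10.2%), 3 (10.3%) or 4 (13.4%). Gsn and Dpp4 passed in each of these fits and Ly6c1 in all but that without pCAF replicate 2 (adjusted p = 0.0505). Dpt, Clec3b and Scara5 passed only with all 7 libraries or without pCAF replicate 1, with adjusted p of 0.0505 to 0.128 in the other 6 fits. All 10 were lower when libraries were scaled to pan-fibroblast genes (30.8% of all genes lower) and without both libraries that stood apart (26.9%), and 2 were when the test asked for a change above 2-fold (6.93%).

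**Figure D3:**
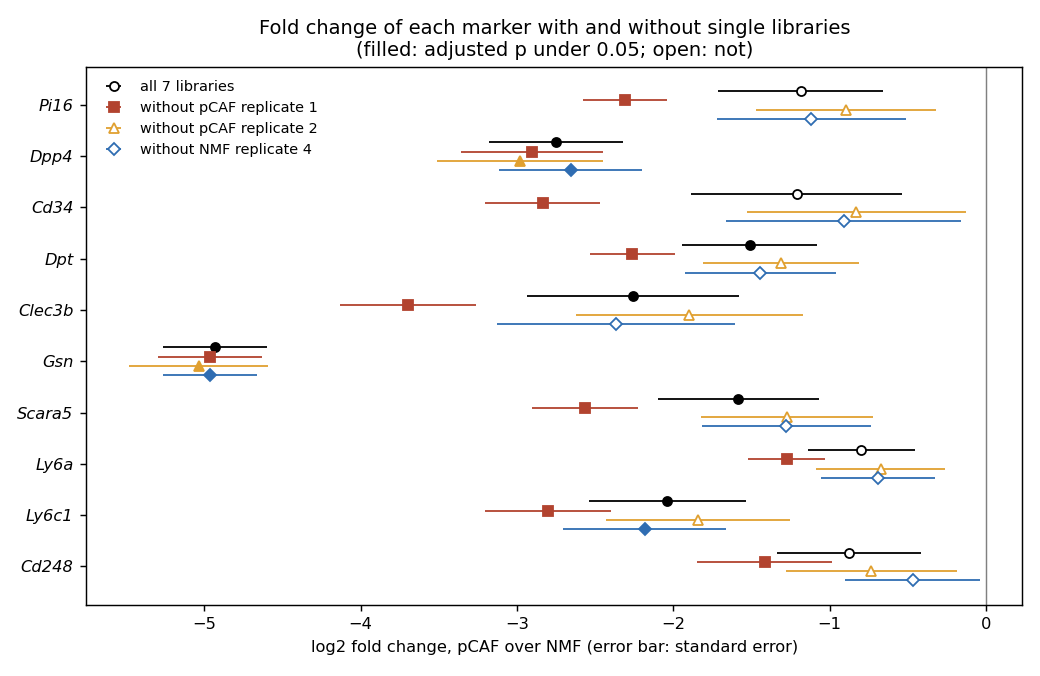
Log2 fold change of each marker, pCAF over NMF, with its SE, from all 7 libraries and without pCAF replicate 1, without pCAF replicate 2 and without NMF replicate 4. Filled points have an adjusted p under 0.05: all 10 markers lie below 0 in each fit shown, and all 10 are filled without pCAF replicate 1.

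The markers' share of the counts followed the same split. Together they held 1.40%, 0.564% and 0.406% of all counts in pCAF replicates 1 to 3, against 3.46%, 3.92%, 4.41% and 3.88% in NMF replicates 1 to 4. The level of Gsn was 0.0303, 0.101 and 0.102 times the sum of the other 9 in pCAF, against 0.697, 0.611, 0.795 and 0.569 in NMF. Counts were also set against Pdgfra of the same library. Dpp4, Dpt, Gsn and Scara5 did not overlap between the groups on that scale, and the other 6 did. The share of all tested genes without overlap was not computed on that scale, so the count is only a description. Gsn counts were 2.64, 2.29 and 2.03 times those of Pdgfra in pCAF, against 87.7, 81.4, 93.7 and 46.3 times in NMF. For Cd34 the ratio was 9.22, 1.21 and 0.980 in pCAF, against 8.98, 7.84, 8.19 and 8.96 in NMF. pCAF replicate 1 was thus about level with the highest NMF libraries in Cd34 per Pdgfra, and the other tumor libraries were below all NMF libraries.

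Across the 7 libraries the markers resembled each other to different degrees. The 7 points form 2 groups and share their scaling, so these correlations of log2 CPM are a description. Pi16 and Ly6a had a Pearson correlation of 0.988, and Cd34 and Ly6a of 0.985. Gsn was most like Dpp4, at 0.947, and was at 0.762 with Pi16. The lowest value was 0.552, between Ly6c1 and Cd248. Among tested genes that averaged 50 CPM or more, the one most like Cd34 was Tnxb, at 0.998, and the one most like Pi16 was Stx4a, at 0.992. For Gsn the most alike were Ackr1 and Robo4, both at 0.996, which are genes of blood endothelium. Gpc3 was the most like Dpt (0.996), Ackr2 the most like Scara5 (0.996), Unc45b the most like Ly6c1 (0.999), Cabin1 the most like Ly6a (0.992), Slc10a6 the most like Clec3b (0.986), Map2k7 the most like Dpp4 (0.985) and Scara3 the most like Cd248 (0.977).

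Other genes of the same fibroblast state were lower more often than higher. Of 18 further genes of Pi16-positive progenitor fibroblasts, all tested, 10 passed as lower and 2 as higher, with a median log2 fold change of -1.37. The shares of all tested genes were 14.2% and 14.3%. Pcolce2, which enhances procollagen processing, was at 143 ± 18.2 CPM in pCAF and 1499 ± 339 CPM in NMF, 10.5-fold lower (edgeR adjusted p = 6.03e-05). Dact2, a modulator of Wnt and TGF-beta signalling, was 11.3-fold lower (6.15 ± 3.02 against 70.1 ± 14.8 CPM, adjusted p = 2.33e-04). Igfbp6, which binds insulin-like growth factor II, was 8.60-fold lower (258 ± 136 against 2215 ± 216 CPM, adjusted p = 3.40e-04). Efhd1, a calcium-binding mitochondrial protein, was 8.80-fold lower (27.1 ± 17.0 against 239 ± 48.8 CPM, adjusted p = 5.12e-04), and 13.8-fold lower with pCAF replicate 1 left out. These genes were low in all 3 tumor libraries. The 2 that rose were Wnt2, a Wnt ligand (188 ± 22.0 against 87.5 ± 27.3 CPM, 2.14-fold, adjusted p = 0.0166), and Fbn1, which encodes fibrillin 1 (1271 ± 322 against 537 ± 230.4 CPM, 2.37-fold, adjusted p = 0.0281). Wnt2 no longer passed without pCAF replicate 2 (0.0617) or NMF replicate 2 (0.0592), nor Fbn1 without pCAF replicate 2 (0.0546) or NMF replicate 1 (0.0932), 2 (0.0716) or 3 (0.0594).

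Some of these 18 genes shared the high level in pCAF replicate 1. Tnxb, which encodes tenascin X, was at 1725, 286 and 211 CPM in pCAF, against 1229 to 2219.6 CPM in NMF, and did not pass (adjusted p = 0.241). Its 3' end overlaps another gene and has a near-identical copy, so its counts are uncertain. Without pCAF replicate 1 Tnxb, Efemp1 and Sema3c passed as lower, with log2 fold changes of -2.67, -2.05 and -2.60 (adjusted p = 2.56e-04, 0.00142 and 4.97e-04), and 13 of the 18 were lower. Mfap5, a microfibril protein, was at 1666 ± 287 CPM in pCAF and 1340.2 ± 286 CPM in NMF and did not pass (adjusted p = 0.429).

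Genes of the neighbouring committed states were lower too. Of 14 genes of committed preadipocytes and of the regulatory fibroblasts of fat, 13 were tested. As lower 8 passed and as higher 0, against 14.2% and 14.3% of all tested genes, with a median log2 fold change of -3.24. Inmt, a methyltransferase, was 303-fold lower (4.27 ± 4.08 CPM in pCAF against 1309 ± 791 CPM in NMF, adjusted p = 7.84e-05; its log2 fold change was -8.24, and -9.36 without pCAF replicate 1). Pparg, the master regulator of fat cell differentiation, was 51.5-fold lower (2.24 ± 1.69 against 118 ± 45.7 CPM, adjusted p = 1.12e-04; log2 fold change -5.69, and -6.35 without pCAF replicate 2). Meox2, a homeobox factor, was 19.8-fold lower (4.28 ± 1.75 against 85.6 ± 28.6 CPM, adjusted p = 1.06e-04). Gdf10, a TGF-beta family ligand, was 9.43-fold lower (33.8 ± 18.5 against 319 ± 117 CPM, adjusted p = 9.47e-04). Icam1 and F3, which mark preadipocytes and regulatory cells, did not pass (adjusted p = 0.894 and 0.701). Adipocyte markers moved with the groups: 3 of 5 were tested, all 3 were lower, and their summed level was 0 to 2.77 CPM in pCAF and 54.5 to 115 CPM in NMF. Their part in these values was not tested.

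Genes described as broadly expressed in resting fibroblasts were divided. Of 16, 15 were tested, 4 passed as lower and 2 as higher, with a median log2 fold change of -0.50. The shares of all tested genes were 14.2% lower and 14.3% higher, so the number higher did not stand out. Leaving out pCAF replicate 1 gave 6 lower, against 19.8% of all genes in that fit. Leaving out pCAF replicate 2 or 3 or NMF replicate 1 or 2 gave 1 higher, and leaving out NMF replicate 4 gave 3 higher. Abca8a, a lipid transporter, was 17.1-fold lower (27.9 ± 7.80 against 477 ± 122 CPM, adjusted p = 4.68e-05), though its 3' end has a near-identical copy in Abca8b. Entpd2, an enzyme that breaks down extracellular ATP, was 3.53-fold lower (adjusted p = 0.00503), with a 3' end that overlaps another gene. Fbln1, which encodes the matrix protein fibulin 1, was 2.59-fold lower (adjusted p = 0.0169). Igf1, the growth factor, was 2.54-fold higher (161 ± 23.1 against 63.0 ± 25.5 CPM, adjusted p = 0.0101). Gpx3 and C3, abundant in both groups, did not pass (adjusted p = 0.947 and 0.369). Genes of activated tumor fibroblasts went the other way, with 13 of 14 higher and a median log2 fold change of 4.39. Among them were Tagln, which encodes the actin-binding protein transgelin and whose 3' end overlaps genes on the other strand (1010 ± 136 against 93.4 ± 17.2 CPM, 10.8-fold), and Col8a1, a collagen chain (774 ± 231 against 11.6 ± 1.43 CPM, 66.6-fold). Fap, a membrane protease and the closest relative of Dpp4, was at 126 ± 15.4 CPM in pCAF and 68.4 ± 32.4 CPM in NMF and did not pass (adjusted p = 0.0787), but did without NMF replicate 4 (0.00559).

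**Figure D4:**
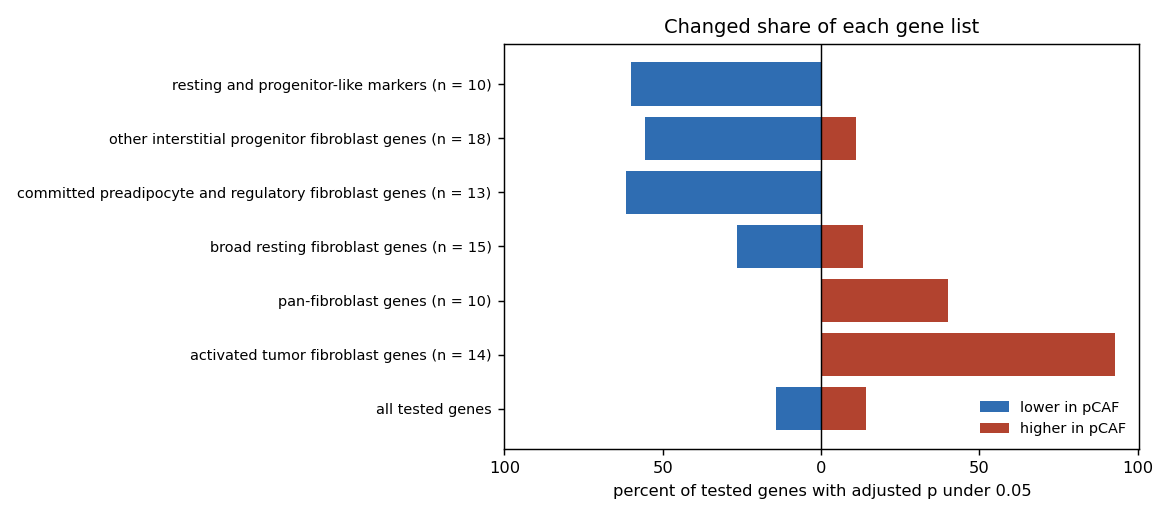
Percent of the tested genes of each list that passed as lower (left) or higher (right) in pCAF at an edgeR adjusted p under 0.05, with all tested genes as the last row. The 10 markers, the further progenitor genes and the committed preadipocyte genes lie toward lower, and the activated genes toward higher, against 14.2% and 14.3% of all genes.

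Relatives of the markers by protein family did not follow one direction. Of 34, 24 were tested, 5 passed as lower and 3 as higher, with a median log2 fold change of -0.46. With 14.2% of all tested genes lower and 14.3% higher, the list did not stand out clearly from them. Cd93, a C-type lectin relative of Cd248 that is known from endothelium, was 38.9-fold lower (2.23 ± 0.973 against 88.8 ± 19.2 CPM, adjusted p = 3.69e-05). Podxl, a sialomucin relative of Cd34 that endothelium also transcribes, was 20.3-fold lower (10.6 ± 8.19 against 216 ± 38.1 CPM, adjusted p = 5.04e-04). Crispld1, a CAP family relative of Pi16, was 15.3-fold lower (adjusted p = 0.00102; log2 fold change -3.93, and -4.72 without pCAF replicate 3). Glipr1, also of the CAP family, was higher (44.7 ± 32.7 against 1.11 ± 1.16 CPM, adjusted p = 0.00126), but its 3' end overlaps another gene and has near-identical copies, and its log2 fold change of 5.50 came to 4.73 with pCAF replicate 1 left out and to 6.32 with NMF replicate 2 left out. Ly6e, an abundant Ly6 gene, did not pass (adjusted p = 0.584), nor did Capg, a gelsolin relative (adjusted p = 0.0759). Without pCAF replicate 1, 25 relatives were tested, of which 9 were lower and 5 higher, against 19.8% and 18.3% of all genes in that fit. The number higher was 1 without pCAF replicate 2, pCAF replicate 3 or NMF replicate 1, and 2 when any other NMF library was left out.

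Markers of other cell types moved with the groups, and the NMF cells had not been selected on PDPN. All 15 blood endothelial markers were lower, and their summed level was 63.2, 69.3 and 74.3 CPM in pCAF replicates 1 to 3, against 3312, 3791, 2315 and 2389 CPM in NMF replicates 1 to 4. Of these 15, Sox17 was at 0 in every pCAF library. Cd34, Ly6a, Ly6c1 and Dpp4 are also transcribed in mouse endothelium. All 4 Schwann cell markers were lower (summed level 0 to 3.38 CPM in pCAF, 138 to 665 CPM in NMF), and all 4 tested mesothelial markers were higher (199 to 292 CPM in pCAF, 0.773 to 4.86 CPM in NMF). Pericyte markers summed to 252 to 435 CPM in pCAF and 358 to 564 CPM in NMF, with 1 of 8 higher (2 without NMF replicate 4) and 4 lower. Immune markers were at 28.3 to 63.7 CPM in pCAF and 28.9 to 189 CPM in NMF, with 3 of 6 tested lower (1 without pCAF replicate 3 or NMF replicate 3, 2 without pCAF replicate 2 or NMF replicate 2, and 0 of 5 tested without NMF replicate 1), and Ptprc, Cd79a and Adgre1 were at 0 in every pCAF library. Epithelial and tumor cell markers were at 74.9 to 234 CPM in pCAF and 62.9 to 344 CPM in NMF, with 2 of 6 tested lower (1 without pCAF replicate 2 or NMF replicate 2, 0 of 5 tested without NMF replicate 1, and 3 without NMF replicate 4). Lymphatic endothelial markers were at 23.3 to 46.8 CPM in pCAF and 32.4 to 78.8 CPM in NMF, with 1 of 3 tested higher and 1 lower, and none of 4 erythroid markers was abundant enough to be tested. The summed endothelial levels of the 3 pCAF libraries lay close together, so their order is not read here. The part of these cell types in the values of the 10 markers was not tested.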

How the data were processed

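The authors deposited a table of raw counts per gene symbol; nothing was normalized in it. Per the labels' protocols, 3' end libraries were made from polyadenylated RNA. STAR 2.4.2a, HTSeq, bcl2fastq and the mm10 build are named in the submitters' processing notes, without their roles. Annotation, strand setting and molecular identifiers are not given in the sources used here, so antisense reads cannot be told apart. Library totals of 1885039 to 4990070 limit the precision for genes with few counts.

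edgeR 4.0.16 in R 4.3.3 was used on the counts, with the filterByExpr filter (10535 genes left) and TMM scaling. Groups, taken from titles, were compared by its robust quasi-likelihood F test (two-sided; threshold 0.05 after Benjamini-Hochberg adjustment across the genes tested). CPM use TMM-scaled library sizes. Fold changes are pCAF over NMF. The methods were also run on simulated counts with planted changes and the same spread for all genes. No simulated library was made to stand apart, so that run does not bear on calls that move with single libraries. Alternatives used DESeq2 1.42.0, limma 3.58.1 (voom) and the other settings given in the closing section. Copies of 3' ends were searched with blastn 2.17.0 (last 300 bases, matches of at least 80 bases at 95% identity) in GENCODE M21, which also gave gene positions. Python 3.11.15 with pandas 2.3.3 made the tables, and matplotlib 3.10.9 the plots.

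The markers and lists were chosen with earlier results of these data known. All 10 markers are named. From each other list the rule takes up to 4 passing genes by adjusted p and up to 2 abundant ones that did not pass or went against the rest. Efemp1 and Sema3c were named after their values were seen.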

Additional observations from a re-analysis of the deposited data

Results flagged for a closer look

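Among the 10 markers, 2 had an NMF library far from the other NMF libraries for its group's range (Dixon's ratio above its 95% critical value for 4 samples). Gsn was at 18672 CPM in NMF replicate 3, with the gap to the next library at 0.850 of the range. Scara5 was at 853 CPM in NMF replicate 4, with a gap of 0.831 of the range. With 10 groups tested, chance alone flags about 1 in 20. Without the replicate concerned Gsn still passed as lower in pCAF, and Scara5 did not (adjusted p = 0.116). The pCAF group, with 3 libraries, cannot be tested in this way.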

How the results depend on the processing

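Under 19 alternatives the 10 markers gave 190 fitted values, and none changed direction; 150 kept their side of the threshold, 25 lost and 15 gained a call. Gsn and Dpp4 passed in all 19 (log2 fold change -5.88 to -4.79 and -3.71 to -2.43). The number of markers lower in pCAF was 6, and it was 2 to 10 when 1 library was left out, 2 when the test asked for a change above 2-fold (glmTreat; 6.93% of all genes), 10 when libraries were scaled to pan-fibroblast genes (30.8%) and 10 without both libraries that stood apart (26.9%). None was higher in any of these; DESeq2 gave 6 lower (17.9% of all genes) and 0 higher, limma-voom 7 (13.1%) and 0, and 8 were lower and 0 higher at an unadjusted p under 0.05, as were 2110 and 2111 of the 10535 genes tested. With the replicate number as a block, 4 were lower (9.71% of all genes; Dpt 0.0535, Scara5 0.0546), which cannot be read as a weaker effect because the libraries share only a number: after removal of group means, same-numbered libraries correlated at -0.09, 0.08 and -0.01. Pi16 passed with library totals (0.0450) and limma-voom (0.0360), and Ly6a with library totals (0.0273). Scaling moved the all-gene median of the log2 fold change to -0.26 with library totals and -0.97 with pan-fibroblast genes, where the markers' median was -1.84 and -2.51. Over all genes 1503 were higher and 1491 lower (50.2% of calls higher). The numbers were 1121 and 1902 (37.1%) with library totals, 422 and 3240 (11.5%) with pan-fibroblast scaling, 621 and 730 with glmTreat, 978 and 1023 with the replicate block, and 2802 and 2913 without both libraries that stood apart. Leaving out 1 library gave 1016 to 2021 higher and 979 to 2187 lower. The low counts of Dpp4 in pCAF, 6 to 15 a library, limit the precision of its fold.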

Other observations

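Known partners and substrates of the markers' products were mostly without a call. Of 15, 14 were tested, 2 passed as higher and 2 as lower in pCAF, with a median log2 fold change of -0.35. Among all tested genes, 14.3% passed as higher and 14.2% as lower, so the list did not stand out from them. Without pCAF replicate 1, 3 were higher and 4 lower, and 1 was higher when pCAF replicate 2 or 3 or NMF replicate 1 or 2 was left out. Tgfb1, which encodes the TGF-beta ligand that dermatopontin can bind, was at 131 ± 38.6 CPM in pCAF and 32.9 ± 7.05 CPM in NMF, 4.00-fold higher (edgeR adjusted p = 8.32e-04), though 1.93-fold and without a call when libraries were scaled to pan-fibroblast genes (0.131). Ada, which encodes adenosine deaminase, a ligand of human DPP4, was at 26.97 ± 4.76 CPM in pCAF and 8.98 ± 4.68 CPM in NMF (adjusted p = 0.0303), and did not pass when pCAF replicate 2 (0.0968), pCAF replicate 3 (0.0533), NMF replicate 1 (0.0806) or NMF replicate 2 (0.0768) was left out. Mmrn2, an endothelial matrix protein that binds CD248 and CD93, was at 4.82 ± 6.93 CPM in pCAF and 209 ± 64.4 CPM in NMF, 42.8-fold lower (adjusted p = 0.00111; 237-fold without pCAF replicate 1). Cav1, which encodes caveolin 1, a partner of human DPP4, was 8.95-fold lower (59.2 ± 47.0 against 531 ± 137 CPM, adjusted p = 0.00955). Fth1, a ferritin chain of the kind that SCARA5 takes up, with a near-identical 3' copy elsewhere, was at 2917 ± 1531 CPM in pCAF and 4917 ± 1266 CPM in NMF and did not pass (adjusted p = 0.217). Mmrn2 and Cav1 are transcribed in endothelium, whose markers were lower in pCAF, and the part of that cell type in these values was not tested.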
